A study of Homo sapiens with 9 samples.

Results

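The mitochondrial genome of human cells encodes a small part of the respiratory chain, and the 10 genes described here are MT-ND1, MT-ND2, MT-ND3, MT-ND4, MT-ND5, MT-CYB, MT-CO1, MT-CO2, MT-CO3 and MT-ATP6. They were chosen by name, and all 10 were found among the 22295 entries of the expression table, of which 19932 carry a gene symbol. The table holds 13 mitochondrially encoded genes, the other 3 being MT-ATP8, MT-ND4L and MT-ND6, which are named beside the 10 where they lie next to them. The cells were U251, an established human glioblastoma line, infected with a lentivirus that carries a short hairpin RNA (sh-RNA). In the sh-Luci-3d group the sh-RNA was directed against luciferase and the cells were taken 3 days after infection, and in the sh-Ptbp1-3d and sh-Ptbp1-7d groups it was directed against PTBP1, an RNA-binding splicing repressor, for 3 and 7 days. Per the study's methods, infected cells were moved to a neuronal induction medium with forskolin and dorsomorphin before day 3, and no selection of clones is described. A sh-Luci group of 7 days was not analysed here, so the longer knockdown and the longer culture in this medium cannot be told apart in sh-Ptbp1-7d. Each group had 3 libraries, and no source says whether they came from separate cultures, so that p-values measure the spread between these libraries, which may be technical.

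Mitochondrial DNA is transcribed from both strands as long precursors that run through many genes. The mRNAs are released mostly where a tRNA lies between them, and after that each mRNA can be kept or degraded on its own. The encoded proteins are core subunits of respiratory complexes I, III, IV and V, which are completed by subunits encoded in the nucleus and imported from the cytosol. Complex II has only nuclear subunits.

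On the mitochondrial chromosome (chromosome M, GRCh38, GENCODE v29) the 10 genes lie on the plus strand, are single exons and span 346 to 1812 bases each, with a GC content of 40.2% to 47.7%. In their order they are MT-ND1 (3307 to 4262), MT-ND2 (4470 to 5511), MT-CO1 (5904 to 7445), MT-CO2 (7586 to 8269), MT-ATP6 (8527 to 9207), MT-CO3 (9207 to 9990), MT-ND3 (10059 to 10404), MT-ND4 (10760 to 12137), MT-ND5 (12337 to 14148) and MT-CYB (14747 to 15887). MT-ATP8 (8366 to 8572) lies between MT-CO2 and MT-ATP6 and shares 46 bases with the latter. MT-ND4L (10470 to 10766) lies between MT-ND3 and MT-ND4 and shares 7 bases with MT-ND4. MT-ND6 (14149 to 14673) is on the minus strand, and since strand use is not given in the sources used here, reads of the opposite strand cannot be told apart at any of these genes. The junctions below are printed because the genes called at 7 days relative to sh-Ptbp1-3d begin after MT-CO2 and end before MT-ND5. They are the first and last 30 bases of the GENCODE transcripts, 5′ to 3′, and capitals mark the first codon or the letters of the stop codon that the genome itself provides.

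MT-CO2 end: tttgaaatagggcccgtatttaccctaTAG
MT-ATP6 start: ATGaacgaaaatctgttcgcttcattcatt
MT-ATP6 end: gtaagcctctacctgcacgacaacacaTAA
MT-CO3 start: ATGacccaccaatcacatgcctatcatata
MT-CO3 end: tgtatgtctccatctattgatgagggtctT
MT-ND3 start: ATAaacttcgccttaattttaataatcaac
MT-ND3 end: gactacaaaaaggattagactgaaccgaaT
MT-ND4 start: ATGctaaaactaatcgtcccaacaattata
MT-ND4 end: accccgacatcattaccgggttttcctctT
MT-ND5 start: ATAaccatgcacactactataaccacccta

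The last base of MT-ATP6 is the first base of MT-CO3, with no tRNA between them, so reads over that base could be given to either gene. Of the 10 genes, 4 end in a complete stop codon (MT-CO1, MT-CO2, MT-ATP6 and MT-ND5) and 6 end in T or TA, where the poly(A) tail completes the codon. MT-CO3, MT-ND3 and MT-ND4 are among the 6. Both kinds of ending are found inside and outside the run from MT-ATP6 to MT-ND4.

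Levels are given as FPKM, a read density per transcript length and per size of the library, which allows genes of different length to be compared. FPKM is a relative unit, so in these bulk samples fewer cells of a type and less RNA per cell cannot be told apart. The FPKM values sum to between 367412 and 404922 per library. No step of whole reads could be found in the low values, which leaves the depth unknown and the counting error without an estimate. PTBP1, the targeted gene, ranged from 110.7 to 124.4 in the sh-Luci-3d libraries, from 61.0 to 66.2 in those of sh-Ptbp1-3d and from 49.7 to 51.0 FPKM in those of sh-Ptbp1-7d, with no overlap. VIM, NES, CD44 and SOX2, which glioma lines express, were above 1 FPKM in every group, while the astrocyte genes GFAP and S100B had group means below 1 FPKM. Of 6 neuronal markers, TUBB3 and MAP2 were present in every library, and STMN2 (11.5 FPKM) and DCX (2.14 FPKM) were above 1 FPKM in sh-Ptbp1-3d replicate 3 alone. Of 6 blood and immune markers, CD68 alone was above 1 FPKM.

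Libraries of a group differed before any comparison was made. sh-Luci-3d replicate 3 was the lowest of its group for 9 of the 10 genes, by a median of -0.49 on the log2 scale against the mean of the other 2, and MT-ND3 was the exception. sh-Ptbp1-7d replicate 3 was the highest of its group for 10 of 10 genes, by a median of 0.51 on the log2 scale. In sh-Luci-3d replicate 3 the nuclear subunits of complex I averaged 92.1 FPKM, against 67.5 and 64.7 FPKM in replicates 1 and 2, and POLRMT, the mitochondrial RNA polymerase, was at 31.4 FPKM against 22.6 and 23.2 FPKM. In sh-Ptbp1-7d replicate 3 the nuclear complex I average of 71.7 FPKM lay between the 75.5 and 70.7 FPKM of the other 2. The part of these libraries in each result was measured by leaving them out.

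**Figure D1:**
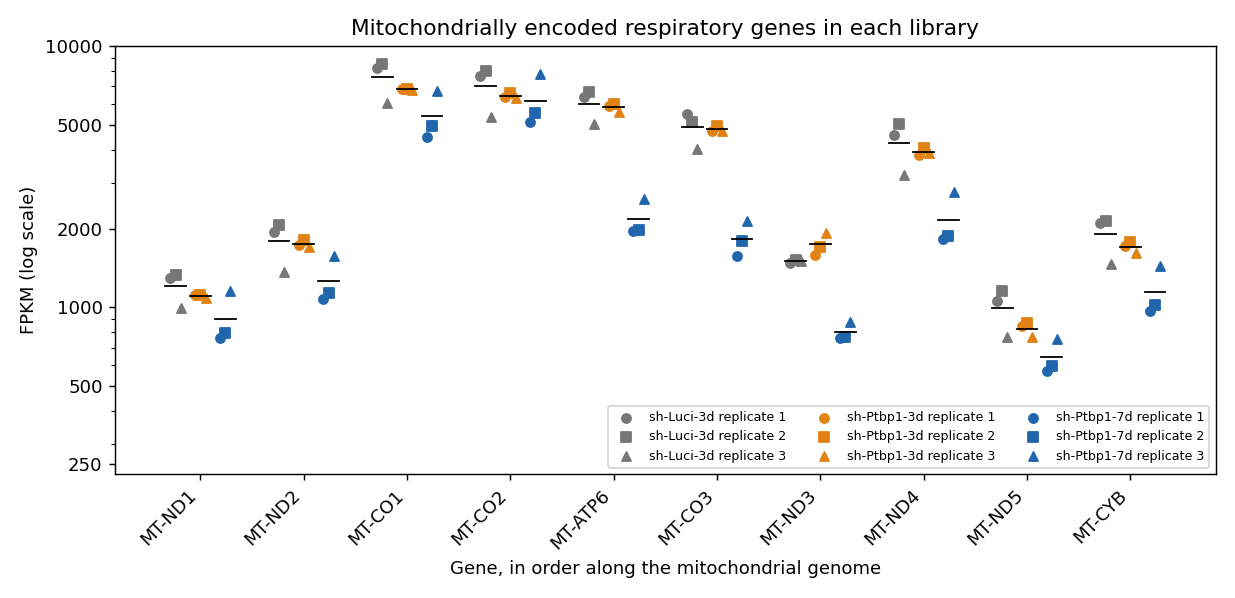
FPKM on a log axis for the 10 genes in order along the mitochondrial genome. Each point is a library, colours mark the groups, symbols the replicates and black lines the mean of 3 libraries. MT-ATP6 and MT-CO3 lie at 1563 to 2585 FPKM in sh-Ptbp1-7d and at 4039 FPKM or more in all others, whereas the groups overlap for MT-CO2.

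The 10 genes together made up 10.4%, 10.7% and 7.40% of the FPKM total in sh-Luci-3d replicates 1, 2 and 3. They made up 8.59%, 8.83% and 8.90% in the sh-Ptbp1-3d replicates and 5.19%, 5.56% and 7.34% in the sh-Ptbp1-7d replicates. All sh-Ptbp1-7d libraries thus lay below all others, while sh-Luci-3d replicate 3 lay below the sh-Ptbp1-3d range and the other sh-Luci-3d libraries above it. The means were 9.49% ± 1.82 (SD, n = 3) in sh-Luci-3d, 8.77% ± 0.161 in sh-Ptbp1-3d and 6.03% ± 1.15 in sh-Ptbp1-7d. The mean of sh-Ptbp1-7d differed from that of sh-Ptbp1-3d by -2.74 percentage points and from that of sh-Luci-3d by -3.46 percentage points, each with a two-sided exact permutation p of 0.1, the smallest that 3 against 3 libraries can give. For the 3-day groups the difference (sh-Ptbp1-3d minus control) was -0.719 percentage points (exact permutation p = 0.4). That value was -0.274 without sh-Luci-3d replicate 1, -0.118 without replicate 2 and -1.76 without replicate 3. Among the 20 highest entries of a library, 8, 8 and 6 were from these 10 genes in sh-Luci-3d, 8 in each sh-Ptbp1-3d library and 5 in each sh-Ptbp1-7d library.

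**Figure D2:**
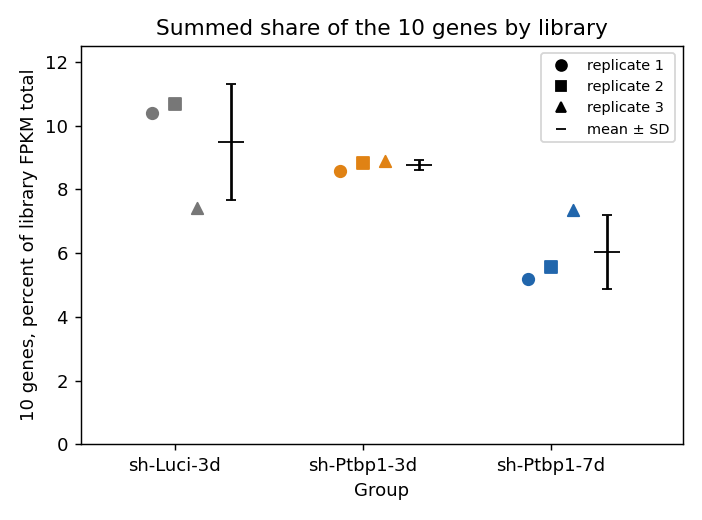
Summed FPKM of the 10 genes as percent of the FPKM total, for each of 3 libraries in each group, with the mean ± SD beside them. The sh-Ptbp1-7d libraries, at 5.19% to 7.34%, lie below the other 6, and the spread is widest in sh-Luci-3d.

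Knockdown for 3 days was compared with the control first, since both were taken on the same day. None of the 10 genes passed an adjusted p of 0.05 in limma, and over all 15551 entries tested 0.0322% did. At an unadjusted p below 0.05, 0 of the 10 passed, against 7.24% of all entries. The log2 fold changes ran from -0.24 (MT-ND5) to 0.21 (MT-ND3), with a median of -0.096 beside a median near 0 over all entries, and the limma adjusted p ran from 0.716 to 0.992. The signs of MT-ND2, MT-ND4, MT-CO2, MT-CO3 and MT-ATP6 turned under at least 1 alternative, which included leaving out sh-Luci-3d replicate 1 or 2. MT-ND3 was the single gene whose libraries did not overlap, which 10.8% of all entries showed in either direction. Without sh-Luci-3d replicate 3 the median over the 10 genes was -0.27 and again 0 passed, while 6.37% of all entries did. With sh-Ptbp1-7d replicate 3 left out as well, an alternative chosen after seeing the data, 6 passed (MT-ND1, MT-ND4, MT-ND5, MT-CO1, MT-CO2 and MT-CYB, all lower in sh-Ptbp1-3d), while 11.0% of all entries did in either direction and 3.74% as lower.

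At 7 days the genes parted. MT-ATP6, MT-CO3, MT-ND3 and MT-ND4 fell against sh-Ptbp1-3d at an adjusted p below 0.01, so that 4 of the 10 genes were called lower, beside 15.5% of all entries. MT-ATP6, MT-CO3 and MT-ND3 also passed a fold change of 2, as 5.90% of all entries did in this direction, although with quantile normalization MT-ND3 was at -0.84 and 2 passed. The other 6 had negative values that did not pass, of which those of MT-ND1, MT-ND5 and MT-CO2 turned positive under an alternative scaling, and the median of the 10 was -0.55, beside 0.092 over all entries. Libraries of 8 genes did not overlap, MT-ND1 and MT-CO2 being the other 2, and 27.0% of all entries were lower without overlap. Against sh-Luci-3d, which shares the sh-Ptbp1-7d libraries with this comparison, 6 genes were called lower (the same 4, MT-CYB and MT-ND5), beside 15.0% of all entries, and the median was -0.68 beside 0.099. MT-ATP6 and MT-CO3 passed a fold change of 2 there (5.68% of all entries), and 6 genes had no overlap (23.1% of all entries). Markers of cell type moved beside these values, but not all in one direction. The 6 glioma line genes had a summed level of 1352 to 1477 FPKM in sh-Ptbp1-7d, whereas all other libraries held 4418 to 4836 FPKM. VIM made up most of this sum, with means of 4381 FPKM at 3 and 1169 FPKM at 7 days of knockdown. In the same order CD44 had means of 166 and 62.3 FPKM. NES (45.9 and 36.4 FPKM) and GFAP (0.586 and 0.454 FPKM) had libraries that overlapped. SOX2 went the other way, from 125 to 145 FPKM, as did S100B, from 0.115 to 0.797 FPKM. The 6 neuronal markers summed to 333 to 353 FPKM in sh-Ptbp1-3d and 154 to 162 FPKM in sh-Ptbp1-7d. Of these, TUBB3 had means of 317 and 118 FPKM and MAP2 of 20.3 and 38.9 FPKM. STMN2 was at 0 in every library of all groups except sh-Ptbp1-3d replicate 3 (11.5 FPKM). The part of these markers in the result was not tested.

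MT-ND3, a small membrane subunit of complex I, was at 1475, 1521 and 1507 FPKM in the sh-Luci-3d replicates, 1590.4, 1696 and 1928 FPKM in those of sh-Ptbp1-3d and 762, 770.4 and 875 FPKM in those of sh-Ptbp1-7d. All 3 sh-Ptbp1-7d libraries were lower than any other. Among the 10 genes its libraries lay closest together in sh-Luci-3d and sh-Ptbp1-7d (coefficients of variation of 1.58% and 7.87%) and farthest apart in sh-Ptbp1-3d (9.93%). The log2 fold change was -1.11 against sh-Ptbp1-3d (standard error 0.0999, limma adjusted p = 6.80e-06) and -0.91 against sh-Luci-3d (adjusted p = 3.00e-05). MT-ND4, a proton-pumping membrane subunit of complex I, was at 4573, 5027 and 3196 FPKM in the sh-Luci-3d replicates, 3834, 4079 and 3897 FPKM in those of sh-Ptbp1-3d and 1817, 1872 and 2769 FPKM in those of sh-Ptbp1-7d. Again the 7-day libraries did not reach the others, with 2769 FPKM as the highest of them and 3196 FPKM as the lowest of the others. MT-ND4 fell, its log2 fold change being -0.90 against sh-Ptbp1-3d (standard error 0.194, limma adjusted p = 0.00295) and -0.99 against sh-Luci-3d (adjusted p = 0.00161). Its call against sh-Ptbp1-3d was lost without sh-Ptbp1-3d replicate 2 (limma adjusted p = 0.0127) or replicate 3 (0.0107) and without sh-Ptbp1-7d replicate 1 (0.0141) or replicate 2 (0.0149), and that against sh-Luci-3d without the filter on low values (0.0120).

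The other 3 subunits of complex I showed smaller differences at 7 days. MT-ND5, the longest of the 10 and another proton-pumping subunit, was at 1052, 1149 and 769 FPKM in the sh-Luci-3d replicates, 845, 872 and 768 FPKM in those of sh-Ptbp1-3d and 572, 597 and 757 FPKM in those of sh-Ptbp1-7d. The highest 7-day library was just below the lowest library of either 3-day group. Its log2 fold change was -0.38 against sh-Ptbp1-3d (limma adjusted p = 0.0640, not called) and -0.62 against sh-Luci-3d (adjusted p = 0.00702), a call that 14 of 22 alternatives lost. Leaving out any single library other than sh-Luci-3d replicate 3 or sh-Ptbp1-7d replicate 3 (7 of 9) lost it, with limma adjusted p from 0.0108 to 0.0305. MT-ND1, which lies where the membrane arm meets the peripheral arm, measured 764, 798 and 1151 FPKM in sh-Ptbp1-7d and 1292, 1329.9 and 996 FPKM in the control, while the sh-Ptbp1-3d libraries ranged from 1081 to 1118 FPKM. Here the third 7-day library was above all sh-Ptbp1-3d libraries, and the log2 fold change of -0.31 was not called (limma adjusted p = 0.127). MT-ND2, a further proton-pumping subunit, measured 1073, 1133 and 1565 FPKM in sh-Ptbp1-7d, below the 1706 to 1801 FPKM of sh-Ptbp1-3d, with a log2 difference of -0.49 (limma adjusted p = 0.0361, not called). In the control MT-ND2 was at 1947, 2072 and 1366 FPKM, where replicate 3 lay within the 7-day range. Against sh-Luci-3d, MT-ND1 had a log2 fold change of -0.43 and MT-ND2 of -0.51, neither of them called (limma adjusted p = 0.0453 and 0.0314).

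MT-CYB, the cytochrome b subunit of complex III, was at 2101, 2138 and 1458 FPKM in the sh-Luci-3d replicates, 1712, 1777 and 1609 FPKM in those of sh-Ptbp1-3d and 964, 1018 and 1443 FPKM in those of sh-Ptbp1-7d. The 7-day libraries were below the others, with replicate 3 only just below sh-Luci-3d replicate 3. MT-CYB had a log2 fold change of -0.60 against sh-Ptbp1-3d (limma adjusted p = 0.0169, not called) and fell against sh-Luci-3d, with -0.74 (adjusted p = 0.00557). The latter call was lost under 8 of 22 alternatives, including without sh-Luci-3d replicate 1 (0.0243) or replicate 2 (0.0233) and without sh-Ptbp1-7d replicate 1 (0.0253) or replicate 2 (0.0250).

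The 3 subunits of cytochrome c oxidase, complex IV, had the widest range of 7-day differences within a complex. MT-CO3, a core subunit without a metal center, was at 5484, 5108 and 4039 FPKM in the sh-Luci-3d replicates, 4711, 4920.1 and 4743 FPKM in those of sh-Ptbp1-3d and 1563, 1794 and 2136 FPKM in those of sh-Ptbp1-7d. Its highest 7-day library was thus far below the lowest 3-day library. MT-CO3 fell, its log2 fold change being -1.40 against sh-Ptbp1-3d (standard error 0.146, limma adjusted p = 2.00e-05), a level 0.379 times as high, and -1.41 against sh-Luci-3d (adjusted p = 1.84e-05). MT-CO2, which holds the copper center that accepts electrons from cytochrome c, was at 7686, 7996 and 5357 FPKM in the sh-Luci-3d replicates, 6355, 6625 and 6322 FPKM in those of sh-Ptbp1-3d and 5098, 5517 and 7827 FPKM in those of sh-Ptbp1-7d. The groups overlapped, and sh-Ptbp1-7d replicate 3 was the second highest of the 9 libraries. The log2 fold change of MT-CO2 was -0.09 against sh-Ptbp1-3d (standard error 0.191, limma adjusted p = 0.718), and its sign turned with TPM scaling and without sh-Ptbp1-7d replicate 1. MT-CO1, the catalytic subunit, was at 8239, 8494 and 6061 FPKM in the sh-Luci-3d replicates, 6861, 6857 and 6761 FPKM in those of sh-Ptbp1-3d and 4481, 4949.9 and 6709 FPKM in those of sh-Ptbp1-7d. Replicate 3 of the 7-day group stood near the sh-Ptbp1-3d libraries, and the log2 fold change of -0.37 was not called (limma adjusted p = 0.107). Against sh-Luci-3d MT-CO1 had -0.50 and MT-CO2 -0.19, again not called (limma adjusted p = 0.0341 and 0.427).

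MT-ATP6, the subunit of ATP synthase (complex V) that forms the proton path beside the rotor, had the largest log2 difference of the 10 in both 7-day comparisons. It was at 6349.8, 6669.8 and 5005 FPKM in the sh-Luci-3d replicates, 5909, 6006 and 5588 FPKM in those of sh-Ptbp1-3d and 1961, 1981 and 2585 FPKM in those of sh-Ptbp1-7d. No 7-day library came near the 3-day range. MT-ATP6 fell, its log2 fold change being -1.43 against sh-Ptbp1-3d (standard error 0.147, limma adjusted p = 1.76e-05), a level 0.370 times as high, and -1.47 against sh-Luci-3d (adjusted p = 1.47e-05). MT-ATP6, MT-CO3 and MT-ND3 kept their calls in both 7-day comparisons under all 22 alternatives.

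Without sh-Ptbp1-7d replicate 3, 7 of the 10 genes were called lower than in sh-Ptbp1-3d, MT-ND1, MT-ND2 and MT-CYB being added, while 13.2% of all entries were called lower. Without sh-Luci-3d replicate 3, 6 were called in this comparison, with MT-ND2 and MT-CYB added, beside 18.9% of all entries. Against sh-Luci-3d the count was 8 without sh-Luci-3d replicate 3, beside 17.1% of all entries, and 9 without sh-Ptbp1-7d replicate 3, beside 2013 of 15519 entries. Without both libraries that stand apart, 9 were called relative to sh-Ptbp1-3d, all but MT-CO2, beside 18.1% of all entries, and 10 against sh-Luci-3d, beside 16.7%. Both libraries were singled out, after seeing the data, by their levels of these same genes. Higher counts without them are therefore no independent evidence of a difference.

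Along the genome, the genes called against sh-Ptbp1-3d were neighbours in the main fit of all 9 libraries. Read from MT-ND1, the log2 fold changes were -0.31 (MT-ND1), -0.49 (MT-ND2), -0.37 (MT-CO1) and -0.09 (MT-CO2), none of them called. Then followed -1.32 at MT-ATP8, an accessory subunit of ATP synthase, -1.43 at MT-ATP6, -1.40 at MT-CO3, -1.11 at MT-ND3, -0.84 at MT-ND4L, a complex I subunit, and -0.90 at MT-ND4, all 6 called. Past this run stood -0.38 (MT-ND5), -0.21 (MT-ND6 on the minus strand, a complex I subunit) and -0.60 (MT-CYB), again not called. Relative to sh-Luci-3d the called genes had no such downstream end, since all 9 genes from MT-ATP8 to MT-CYB were called lower, MT-ND6 among them at -0.49 (limma adjusted p = 0.00978), and the 4 from MT-ND1 to MT-CO2 were not. MT-ATP8 and MT-ND4L are short and share bases with a neighbour, so that their values are less certain. MT-ATP8 measured 1116, 1102 and 1496 FPKM in sh-Ptbp1-7d and 2746, 3154 and 3301 FPKM in sh-Ptbp1-3d, without overlap (limma adjusted p = 0.00349). MT-ND4L measured 1616, 1589.9 and 2170.4 FPKM in sh-Ptbp1-7d and 2813, 3175 and 3556 FPKM in sh-Ptbp1-3d, also without overlap (limma adjusted p = 0.00949). The extent of the run relative to sh-Ptbp1-3d thus depended on the threshold of 0.01 and on single libraries. MT-ND4 lost its call under 7 of 22 alternatives, and MT-CYB was not far outside (limma adjusted p = 0.0169). Without sh-Ptbp1-7d replicate 3, MT-ND1, MT-ND2 and MT-CYB were called as well.

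**Figure D3:**
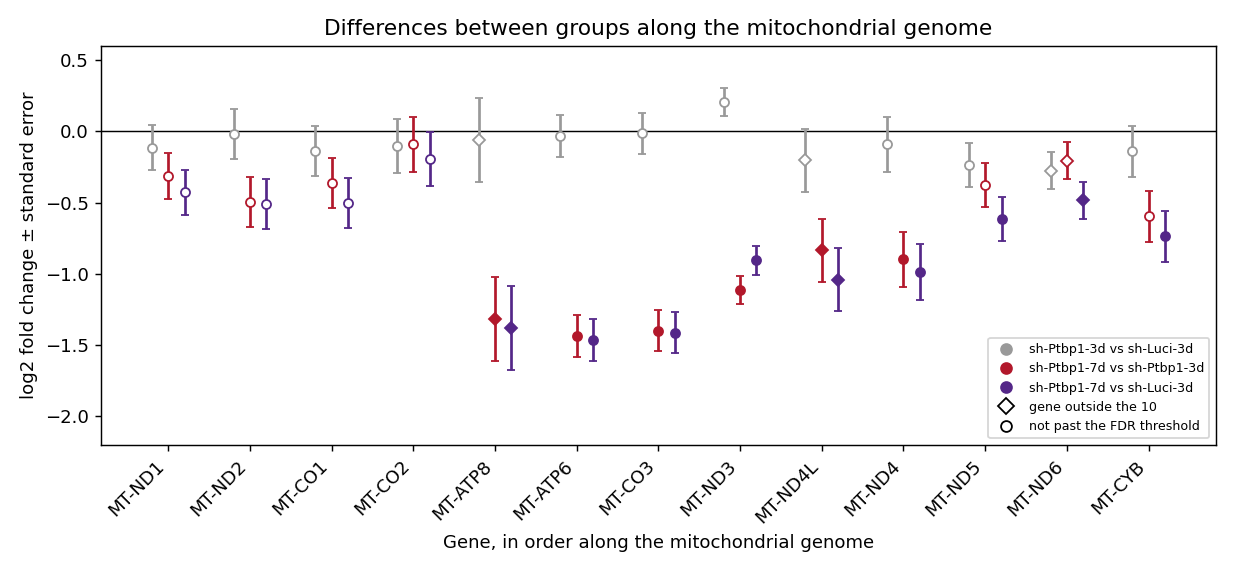
Log2 fold change with its standard error from limma for the 13 mitochondrially encoded genes in genome order, in the 3 comparisons. Filled symbols passed the FDR threshold (0.05 between the 3-day groups, 0.01 with sh-Ptbp1-7d), and diamonds are the 3 genes outside the 10. Relative to sh-Ptbp1-3d the called genes run from MT-ATP8 to MT-ND4, whereas relative to sh-Luci-3d every gene from MT-ATP8 to MT-CYB is called and the 4 before them are not.

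Ratios of neighbouring genes within a library remove what all genes of that library share. The pairs were chosen after their values were seen, so the ratios are given as a description. MT-CO3 stood at 0.714, 0.639 and 0.754 of MT-CO2 in sh-Luci-3d, at 0.741, 0.743 and 0.750 in sh-Ptbp1-3d and at 0.307, 0.325 and 0.273 in sh-Ptbp1-7d. In this ratio neither sh-Luci-3d replicate 3 nor sh-Ptbp1-7d replicate 3 lay between the groups. MT-ATP6 stood at 0.865 ± 0.0603 (SD, n = 3) of MT-CO2 in sh-Luci-3d, 0.907 ± 0.0230 in sh-Ptbp1-3d and 0.358 ± 0.0272 in sh-Ptbp1-7d. Between the adjoining MT-ATP6 and MT-CO3 the ratio hardly moved, at 1.23 ± 0.0741, 1.22 ± 0.0382 and 1.19 ± 0.0770 (SD, n = 3) in the 3 groups. At the other end of the run, MT-ND4 was 4.16 to 4.38 times MT-ND5 in sh-Luci-3d, 4.54 to 5.08 times in sh-Ptbp1-3d and 3.14 to 3.66 times in sh-Ptbp1-7d. Upstream of the run, MT-CO1 was 1.06 to 1.13 times MT-CO2 in sh-Luci-3d, 1.04 to 1.08 times in sh-Ptbp1-3d and 0.857 to 0.897 times in sh-Ptbp1-7d.

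The make-up of the 10 genes followed. MT-CO2 supplied 18.8% ± 0.690 (SD, n = 3) of their summed FPKM in sh-Luci-3d, 18.4% ± 0.105 in sh-Ptbp1-3d and 27.3% ± 0.737 in sh-Ptbp1-7d. MT-CO1 supplied 20.4% to 20.5%, 19.2% to 19.8% and 23.5% to 24.2% in the same order. MT-ATP6 supplied 16.2% ± 0.531, 16.7% ± 0.411 and 9.76% ± 0.501, and MT-CO3 supplied 13.2% ± 0.753, 13.7% ± 0.108 and 8.22% ± 0.553. For each of these 4 genes the share in the sh-Ptbp1-7d libraries lay outside the range of the other 6. By level, the order in both 3-day groups was MT-CO1, MT-CO2, MT-ATP6, MT-CO3 and MT-ND4, in every library, followed by a group of MT-CYB, MT-ND2 and MT-ND3 whose ranges overlapped in part, then MT-ND1 and MT-ND5. In sh-Luci-3d the ranges of the first 5 overlapped from one to the next, while in sh-Ptbp1-3d they did not. In sh-Ptbp1-7d MT-CO2 was above MT-CO1 in 3 of 3 libraries, although their ranges overlapped, and both were clear of MT-ATP6, MT-ND4 and MT-CO3, which overlapped one another. MT-ND3 moved to second lowest at 7 days, above MT-ND5.

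Across the 9 libraries the levels of any 2 of the 10 genes had a median Pearson r of 0.894 over 45 pairs, from 0.318 (MT-ND3 and MT-CO2) to 0.996 (MT-CO3 and MT-ATP6). After each group's mean was taken off, the median r was 0.974, with the lowest value of 0.180 between MT-ND3 and MT-ND5 and the highest of 0.997 between MT-ND2 and MT-CO2. These values are a description of 9 libraries that share their depth and make-up between genes. Within groups the levels moved closely together, MT-ND3 least so. The largest departures from a group were those of sh-Luci-3d replicate 3 and sh-Ptbp1-7d replicate 3 (medians of -0.49 and 0.51 on the log2 scale). In the sh-Ptbp1-3d libraries the medians were -0.042 to 0.064. The correlation without the libraries that stand apart was not measured.

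The nuclear subunits of the same complexes were taken from lists of textbook members. None of the 76 nuclear subunits of complexes I to V was called between the 3-day groups. At 7 days relative to sh-Ptbp1-3d, 2 of 37 in complex I were called higher and 6 lower, 0 of 4 in complex II, 1 of 9 lower in complex III, 0 of 11 in complex IV and 4 of 15 lower in complex V. Their median log2 fold changes were -0.15, -0.0008, -0.12, -0.14 and -0.19. Over all entries 20.3% were called higher and 15.5% lower. In complex V, ATP5PB, a stalk subunit, measured 69.7, 70.9 and 65.9 FPKM in sh-Ptbp1-3d and 29.7, 32.1 and 32.7 FPKM in sh-Ptbp1-7d, without overlap, and fell by 1.13 on the log2 scale (limma adjusted p = 6.31e-07). ATP5MG (-0.57) and ATP5F1C (-0.30), membrane and central stalk subunits, fell by less. In complex I, NDUFB9 (-0.58) fell and NDUFA3 rose by 0.99 on the log2 scale, and in complex III UQCRC1 fell by 0.61. In complex IV the nuclear subunits ran from -0.31 to 0.18, and MT-CO3 and MT-CO1, the latter not called, lay below that range. In complex I the lowest nuclear subunit was at -0.73, below which lay MT-ND3 and MT-ND4, and in complex V MT-ATP6 lay below all 15 nuclear subunits. For MT-ND4 (standard error 0.194) and MT-CO1 (0.175) the distance to the lowest nuclear subunit was less than the standard error.

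The mean FPKM of the mitochondrially encoded members of a complex was divided by that of its nuclear subunits in each library. For complex V, with MT-ATP6 as the sole member, this ratio was 56.7, 61.7 and 39.9 in sh-Luci-3d, 50.2, 48.3 and 46.8 in sh-Ptbp1-3d and 19.4, 19.5 and 24.3 in sh-Ptbp1-7d, so the 7-day libraries lay apart. For complex IV it was 46.7, 49.6 and 28.3 in sh-Luci-3d, 35.5, 34.8 and 35.5 in sh-Ptbp1-3d and 23.7, 27.6 and 35.2 in sh-Ptbp1-7d, where the groups overlapped. For complex I the means were 27.3 ± 9.12 (SD, n = 3), 22.9 ± 0.665 and 15.9 ± 3.49, and for complex III they were 23.0 ± 7.87, 18.7 ± 0.653 and 15.1 ± 3.40.

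Nuclear genes that act on mitochondrial DNA and RNA were examined as lists. Of 20 genes of transcription and maintenance, 2 were called higher and 1 lower in sh-Ptbp1-7d than in sh-Ptbp1-3d, of 18 of RNA processing and stability 3 higher and 1 lower, of 11 translation factors 2 lower, and of 8 regulators of mitochondrial biogenesis 2 higher. Over all entries 20.3% were called higher and 15.5% lower in that comparison. Between the 3-day groups 0 of these 57 genes were called, beside 0.0322% of all entries. POLRMT, the RNA polymerase, had means of 27.1 ± 0.530 and 26.3 ± 1.15 FPKM (SD, n = 3) at 3 and 7 days of knockdown, and TFAM, which packages and helps transcribe mitochondrial DNA, was at 8.26 ± 0.352 and 8.37 ± 0.102 FPKM, neither of them called (limma adjusted p = 0.750 and 0.892). TWNK, the mitochondrial helicase, rose by a log2 fold change of 0.60, TK2, a mitochondrial thymidine kinase, rose by 0.41, and RNASEH1, which removes RNA from hybrids with DNA, fell by 0.44.

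Among genes of mitochondrial RNA, SLIRP, a partner of LRPPRC in keeping mitochondrial mRNAs stable, stood at 83.4, 87.1 and 83.0 FPKM in sh-Ptbp1-3d and 52.5, 54.2 and 51.6 FPKM in sh-Ptbp1-7d. The groups did not overlap, and SLIRP fell by 0.68 on the log2 scale (limma adjusted p = 0.000472). LRPPRC had a log2 fold change of -0.36 that did not pass the threshold (limma adjusted p = 0.0178). PNPT1, a subunit of the complex that degrades mitochondrial RNA, measured 9.28, 8.48 and 9.93 FPKM in sh-Ptbp1-3d and then 19.1 FPKM in every sh-Ptbp1-7d library, and rose by 1.04 on the log2 scale (limma adjusted p = 0.000273). TRMT10C, a part of the RNase P that cuts tRNAs out of the precursor, rose by 0.72. The translation elongation factors TUFM (-0.47) and GFM1 (-0.58) fell. PPARGC1A, a coactivator of mitochondrial biogenesis, measured 1.34, 1.62 and 1.48 FPKM in sh-Ptbp1-3d and 6.29, 6.42 and 5.08 FPKM in sh-Ptbp1-7d, and rose by 1.93 on the log2 scale (limma adjusted p = 2.12e-06). Its relative PPRC1 rose by 0.73. The part of these genes in the levels of the 10 was not tested.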

How the data were processed

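The authors isolated total RNA of U251 cells for sequencing on Illumina HiSeq and deposited FPKM values per gene and library. Whether the libraries were selected for poly(A) tails is not given in the sources used here. Per the labels, processing used HISAT2 and GRCh38; versions are not given in the sources used here. A second deposited table, of assembled loci, was not used. Here log2(FPKM + 0.1) was fitted with limma 3.58.1 (intensity trend, R 4.3.3) for the 15551 entries with a mean of at least 0.1 FPKM, with all 9 libraries in one model of 3 groups. P-values were Benjamini-Hochberg adjusted over all of them, and thresholds were 0.05 between the 3-day groups and 0.01 with sh-Ptbp1-7d, with and without a fold change of 2. The pseudocount is negligible at the level of the 10 genes. Summed shares were compared by two-sided exact permutation tests. Sequences and positions came from GENCODE v29. The scripts were tested on simulated data.

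The 10 genes, the gene lists and the tests were chosen with earlier results of these data known. Genes named were the 10, all others with the prefix MT-, PTBP1, POLRMT, TFAM, LRPPRC, SLIRP, PPARGC1A, up to 3 called genes of each list with the smallest adjusted p at 7 days relative to sh-Ptbp1-3d, and the 5 genes most like the 10 by each of 2 measures; some of these are not reported here. Alternatives were other pseudocounts and filters, TPM, median-ratio and quantile scaling, the total without mitochondrial genes, no assembled loci, a fit of only the groups compared, no intensity trend, a block for the replicate number, and each library left out.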

Additional observations from a re-analysis of the deposited data

How the results depend on the processing

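Of 30 results (10 genes in 3 comparisons), 7 had the same direction and the same side of the threshold under all 22 alternatives and 8 changed direction under at least one. The changes of direction were all in values that had not been called. Between the 3-day groups, quantile normalization gave log2 fold changes of 0.030 for MT-ND2 and 0.082 for MT-CO3. Without sh-Luci-3d replicate 1 they were 0.053 (MT-ND2), 0.077 (MT-CO3) and 0.013 (MT-ATP6), and without replicate 2 they were 0.098 (MT-ND2), 0.042 (MT-ND4), 0.0036 (MT-CO2), 0.026 (MT-CO3) and 0.049 (MT-ATP6). The lowest values with 1 library left out were those without sh-Luci-3d replicate 3, at -0.20 (MT-ND2), -0.28 (MT-ND4), -0.29 (MT-CO2), -0.14 (MT-CO3) and -0.16 (MT-ATP6). At 7 days relative to sh-Ptbp1-3d, quantile normalization gave 0.074 for MT-ND1 and 0.15 for MT-ND5, and MT-CO2 was at 0.010 with TPM and at 0.031 without sh-Ptbp1-7d replicate 1, against -0.28 without sh-Ptbp1-7d replicate 3. Quantile normalization moved the median of all entries in that comparison from 0.092 to -0.0087, and TPM moved it to 0.19. The cause of these changes was not tested.

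The number of genes called in sh-Ptbp1-7d against sh-Luci-3d was 3 without the filter on low values, where 19640 entries were tested and 11.2% called lower. Leaving out 1 library gave 3 to 7 calls against sh-Ptbp1-3d (7 without sh-Ptbp1-7d replicate 3), 4 to 9 against sh-Luci-3d and 0 between the 3-day groups. The shares of all entries called lower were 11.7% to 18.9% against sh-Ptbp1-3d and 12.2% to 17.1% against sh-Luci-3d. Between the 3-day groups 0.00642% to 0.0322% of all entries were called in either direction, except without sh-Luci-3d replicate 3 (6.37%). With both libraries that stand apart left out, chosen after seeing the data, the counts were 9, 10 and 6. Beside them 18.1%, 16.7% and 3.74% of all entries were called lower. Past a fold change of 2 the count was 4 against sh-Luci-3d, where 5.68% of all entries passed as lower in the main fit. With quantile normalization 2 genes passed that fold change relative to sh-Ptbp1-3d, where 5.9% of all entries passed as lower in the main fit. No pairing by replicate number was seen: the correlation of deviations of same-numbered libraries ran from -0.0185 to 0.0583. That of differently numbered libraries ran from -0.122 to 0.161. With 3 libraries a group these values cannot exclude that same-numbered libraries were prepared together. With the replicate block 3, 4 and 0 genes were called, the call of MT-ND4 against sh-Ptbp1-3d being lost (limma adjusted p = 0.0116), as it was without the filter (0.0187) and with quantile normalization (0.0411). Beside the first 2 counts, 14.8% and 14.7% of all entries were called lower with this block. Between the 3-day groups 0 of all 15551 entries were called with it. The depth is unknown, so no limit from counting can be given.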

Other observations

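Among 11327 entries searched, those whose log2 levels followed the mean of the 10 genes most closely over the 9 libraries were YWHAE (Pearson r = 0.996), MAP1LC3B (0.990), GLO1 (0.989), MLLT11 (0.988) and MGST1 (0.987). YWHAE was at 339.7, 342.5 and 286.2 FPKM in the sh-Luci-3d replicates, 312.4, 315.3 and 311.9 FPKM in sh-Ptbp1-3d and 212.8, 229.3 and 257.7 FPKM in sh-Ptbp1-7d, so that it too had its lowest control value in replicate 3 and its highest 7-day value in replicate 3. When the group means were taken off, the closest included IL18 (0.990), ARPC3 (0.988), PPP2CB (0.984) and YWHAE (0.982). PPP2CB was at 34.7 FPKM in sh-Luci-3d replicate 3 against 39.0 and 40.5 FPKM, and at 51.3 FPKM in sh-Ptbp1-7d replicate 3 against 44.8 and 44.4 FPKM. The departure of both libraries was thus also seen in these nuclear genes, which were picked for it among many entries.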
